A study of Carica papaya with 55 samples.

Results

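The change of sex-linked transcripts over pistil development in papaya was taken as the difference between 3 libraries of mature female pistils (stage S5) and 3 libraries of the youngest dissected female pistils (stage S1). The libraries were chosen by their sample labels and are 6 of the 55 in the series. All 193 features of the deposited tables were examined, and every difference is given as S5 minus S1. The plants were female Carica papaya of the genotype AU9, with no treatment named in the labels. Stage was given by bud length, with pistils from buds of 1 to 1.5 mm at S1, 2 to 4.5 mm at S2 and 4.5 to 6.5 mm at S3, all before meiosis. Buds of 7 to 12 mm (after meiosis) gave S4 and mature flowers of 15 to 20 mm gave S5. The 9 libraries of S2, S3 and S4 served as points between and shared one estimate of the spread with S1 and S5. Pistillodes, the aborted pistils of AU9 male flowers, were the most similar organ and gave 13 libraries, 2 for each of S2 and S3 and 3 for each other stage. Nothing in the labels ties the replicates to different plants, so p-values measure the spread between these libraries, which may be technical.

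Papaya has female, male and hermaphrodite plants, and sex is set by a chromosome pair in which the Y of males carries a male-specific region that does not recombine with its X counterpart. Females carry X chromosomes and no Y. The pistil is the female organ of the flower; its ovary holds the ovules, which undergo meiosis, and it matures into the fruit after pollination. The series was set up to examine expression of CpMDAR4 alleles by tissue; no feature is named so in the tables, and CpMDAR4 was not analysed here.

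The tables list 97 X features and 96 features of the Y (suffix MSY, for its male-specific region), under the names used here. None of the 193 names matched a gene in the reference table of 48816 genes, so no function is given for any of them, and neither pistil nor ovule markers could be used to check the labelled organ. Totals over these features ran from 51675 to 60700 counts at S1 and from 55611 to 92119 counts at S5. The mean difference of 15363 counts had an exact two-sided permutation p of 0.3, where 3 against 3 libraries cannot go below 0.1. These totals are not sequencing depth, and levels are given as counts per 1000000 of the scaled sex-linked total (CPM), so they are shares of sex-linked RNA. In such bulk samples, fewer cells of a type and less RNA per cell cannot be told apart. All 15 pistil libraries differed from the others of their stage beyond counting noise, with a chi-square per degree of freedom of 4.70 to 17.4 between most pairs and 21.2 to 23.4 for the pairs that held S3 replicate 2, which stood apart.

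A count at a Y-labelled feature in a female comes from a sequence other than a Y. Y-labelled features took 26.7 ± 0.356% of counts at S1 (SD, n = 3) and 26.9 ± 0.156% at S5 (n = 3). The difference of 0.205 percentage points had an exact two-sided permutation p of 0.4, and it turned to -0.880 (exact permutation p = 0.2) without the single feature CpXY47_MSY. With 1 library left out in turn it lay between 0.0777 (without S1 replicate 3) and 0.408 (without S1 replicate 1). Reads that map to several places were counted at each, per the file headers, so the X and the Y copy of a gene can count the same reads, and a number of features is not a number of genes. Of the 69 genes listed with both copies, 26 pairs had over 25% of the female counts of the pair at the Y copy and are called shared here. Another 10 pairs had 5 to 25% there and are called partly shared, and 21 had under 5% and are called separate. In 12 pairs there were under 100 female counts. For copies of shared and partly shared pairs the sequence of origin of the counts is uncertain, though in females it is not a Y.

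The comparison of mature with young pistils asked which sex-linked transcripts differed between the ends of pistil development. Of 105 features with enough counts to test, 29 (27.6%) passed an adjusted p of 0.05, 12 higher at S5 (11.4%) and 17 lower (16.2%). With both copies of a pair counted once, these were 8 genes that rose and 13 that fell. The median log2 change of all 105 features was 0.02, and for 46 features (43.8%) no S5 library lay within the range of S1 libraries or the reverse. The features that rose furthest were both copies of CpXY25, PYCpXY31_X and CpX15, and those that fell furthest were CpXY31_X, PCpY4_MSY and PCpY10_MSY. Another 88 features were not tested, 48 of them without a count in any pistil library. Changes passed 2-fold for 10 of the 29 features, 5 in each direction. X-located features gave 8 higher and 8 lower of 60 tested, with a median of 0.03, and Y-labelled features 4 higher and 9 lower of 45 tested, with a median of 0.02.

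The count of 29 depended on the libraries used. It was 14 without S1 replicate 1, 23 without S1 replicate 2 and 19 without S1 replicate 3. Without S5 replicates 1, 2 and 3 in turn it was 17, 18 and 17. With counts scaled by the table totals alone, 16 features were higher and 13 lower. One fit over all 19 groups ended 11 of the 27 calls named here, those of CpXY1_X, CpXY2_X, CpXY9_X, CpXY34_X, both copies of CpXY41, PCpY4_MSY, PCpY10_MSY, PXCpXY22_X, PXYCpXY4_MSY and PYCpXY31_X. A fit on the 6 libraries alone ended 11, those of CpX15, CpXY1, CpXY2 and CpXY25 (both copies of each), CpXY17_MSY, CpXY34_X, CpXY41_X and PXYCpXY4_MSY. Of 27 features named by a rule on size, level and separation of the groups, 8 kept an adjusted p under 0.05 under every alternative run on them, all 8 of them lower at S5: CpX1, CpXY31_X and both copies of CpXY35, CpXY37 and CpXY42.

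**Figure D1:**
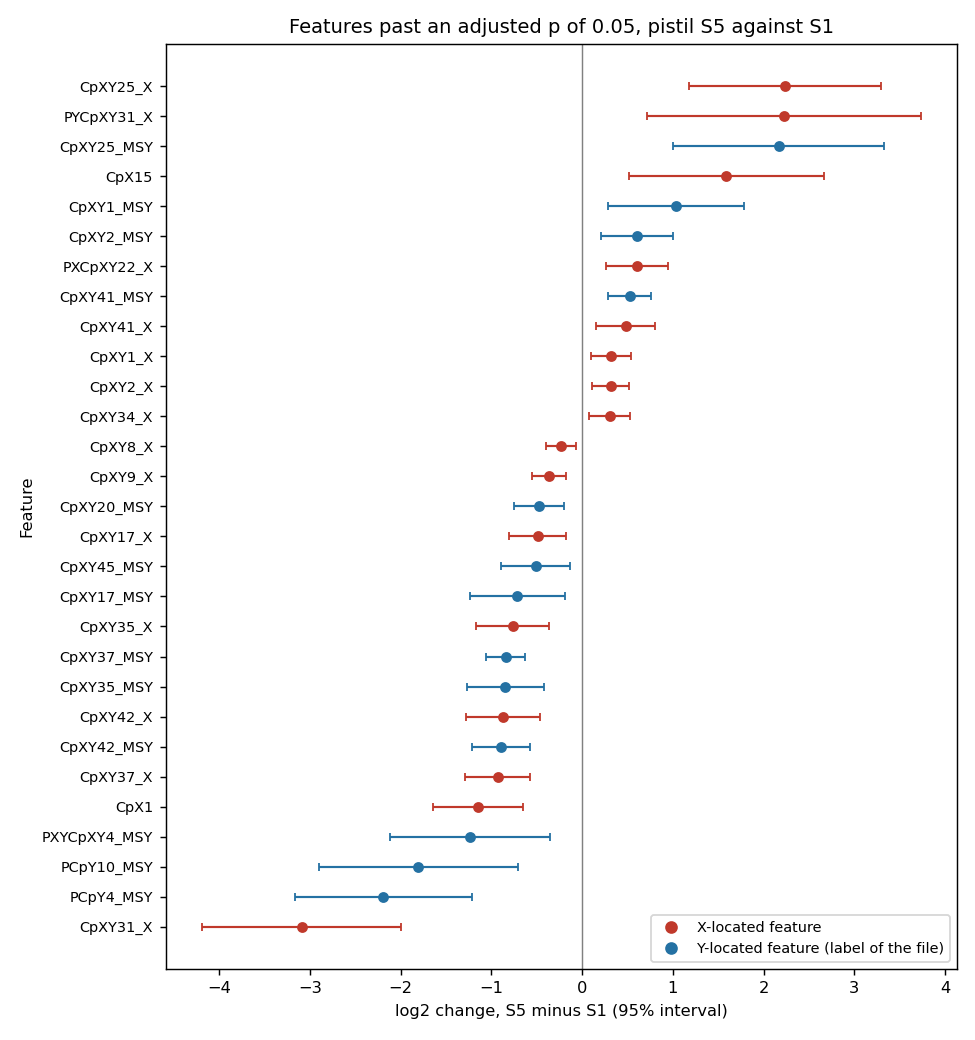
Log2 change from S1 to S5 in female pistils (x axis) for the 29 features past an adjusted p of 0.05 (y axis, ordered by change). Points are the fitted changes and bars their 95% intervals, red for X-located and blue for Y-labelled features; 12 features lie to the right of 0 and 17 to the left, from 2.24 for CpXY25_X to -3.09 for CpXY31_X.

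Among the features that rose, CpXY25 was the pair with the largest change. CpXY25_X (chromosome X, 4401421 to 4402242, genome build not given in the sources used here) stood at 588, 1213 and 629 CPM in the 3 S1 libraries and at 1804, 7412 and 2233 CPM in the 3 S5 libraries. The groups did not overlap, but S5 replicate 2 stood at more than 3 times the other S5 libraries. The log2 change of CpXY25_X was 2.24 (SE 0.49, adjusted p = 0.00509), and without S5 replicate 2 it was 1.33 (adjusted p = 0.0195). The Y-labelled copy, CpXY25_MSY, is part of a shared pair and held 284, 658 and 315 CPM at S1 and 786, 3717 and 1109.6 CPM at S5. It showed the same high library, and its change of 2.16 (SE 0.54, adjusted p = 0.0104) was 1.19 without S5 replicate 2 (adjusted p = 0.0675). Without S1 replicate 1 it was 1.96 (adjusted p = 0.0502).

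The X feature CpX15 (chromosome X, 2371023 to 2371797), which has no Y partner, had the same high library. Its levels were 1054, 866 and 894 CPM at S1 and 1393, 5575 and 1405 CPM at S5, where replicate 2 alone was about 4 times the others. The change of 1.59 (SE 0.50, adjusted p = 0.0325) was 0.59 without that library (adjusted p = 0.304), so the call rests on it; leaving out any one of the S1 libraries also ended the call. At S4 the library numbered 2 was also the highest, with 2599, 4241 and 2035 CPM for CpX15 and 2703, 5534 and 2429.8 CPM for CpXY25_X. CpXY1_MSY, the Y copy of a partly shared pair, was again highest in S5 replicate 2, with 689, 485 and 828 CPM at S1 and 1143, 1890.3 and 1053 CPM at S5. Its change of 1.03 (SE 0.35, adjusted p = 0.0412) was 0.73 without that library (adjusted p = 0.222), and the call was also lost without any one of the S1 or S2 libraries, S4 replicate 3 or S5 replicate 1. Over the tested features, the deviations of S5 replicate 2 and S4 replicate 2 from their stage means correlated at 0.429. Those of S5 replicate 3 and S4 replicate 1 correlated at 0.402. What S5 replicate 2 shares with S4 replicate 2 was not tested.

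PYCpXY31_X (chromosome X, 4589994 to 4590387) rose from few counts. The 3 S1 libraries held 0, 2 and 5 counts and the 3 S5 libraries 12, 18 and 14, or 39.1 ± 41.6 CPM against 201 ± 12.1 CPM (SD, n = 3 each). Every S5 library was above every S1 library, and S5 varied little. The change was 2.23 (SE 0.71, adjusted p = 0.0325), and the call was lost when S1 replicate 1, S1 replicate 2 or any S5 library was left out, with log2 changes of 1.73 to 3.33 over all alternatives and a largest adjusted p of 0.0868. Its Y copy had no count in any of the 15 pistil libraries.

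The other features that rose changed by less than 2-fold apart from CpXY1_MSY, at higher levels. CpXY41_MSY stood at 8449.9, 9304 and 7748 CPM at S1 and 11375, 12860.2 and 12374 CPM at S5, a change of 0.52 (SE 0.11, adjusted p = 0.00480). The gap between the groups was wider than the spread within either, and leaving out any single library kept the call. Its X copy, CpXY41_X, rose with a change of 0.48 (SE 0.15, adjusted p = 0.0325), from 4210.0 ± 157 to 5858 ± 1169 CPM, and lost its call without S1 replicates 1 or 2 or S5 replicates 2 or 3. In the fit over all 19 groups neither copy passed, with adjusted p of 0.405 for CpXY41_MSY and 0.435 for CpXY41_X. PXCpXY22_X, an X copy of a separate pair, rose from 2756, 2928 and 2417 CPM to 4661, 3441 and 4228 CPM, a log2 change of 0.60 (SE 0.16, adjusted p = 0.0141), and lost its call without S5 replicate 1.

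The neighbours CpXY1_X and CpXY2_X lie within 12.6 kb on the X, and both rose. CpXY1_X went from 11773, 12717 and 10546 CPM to 15500.1, 14506 and 13652 CPM, a log2 change of 0.32 (SE 0.10, adjusted p = 0.0358). CpXY2_X went from 29078, 31446 and 24899 CPM to 34161, 35161 and 36828 CPM, a log2 change of 0.31 (SE 0.10, adjusted p = 0.0295). In both, every S5 library was above every S1 library, but the gap between the groups was smaller than the spread of the S1 libraries. CpXY2_MSY rose from 1719.8 ± 423 to 2619 ± 356 CPM, a log2 change of 0.61 (SE 0.19, adjusted p = 0.0295), and lost its call without S1 replicate 3, S5 replicate 1 or S5 replicate 3. CpXY34_X, with 6322, 7537 and 6523 CPM at S1 and 8322, 8835 and 8048 CPM at S5, rose by 0.31 on the log2 scale (SE 0.11, adjusted p = 0.0425). The call of CpXY34_X was lost in 14 of 25 alternatives, among them each S5 library left out and S1 replicates 1 and 3, S3 replicate 1 and S4 replicates 1 and 3. The calls of CpXY1_X and CpXY2_X were each lost in 6 of 25, both without S1 replicate 1, S1 replicate 3 or S5 replicate 1, CpXY1_X also without S5 replicate 2 and CpXY2_X also without S5 replicate 3.

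**Figure D2:**
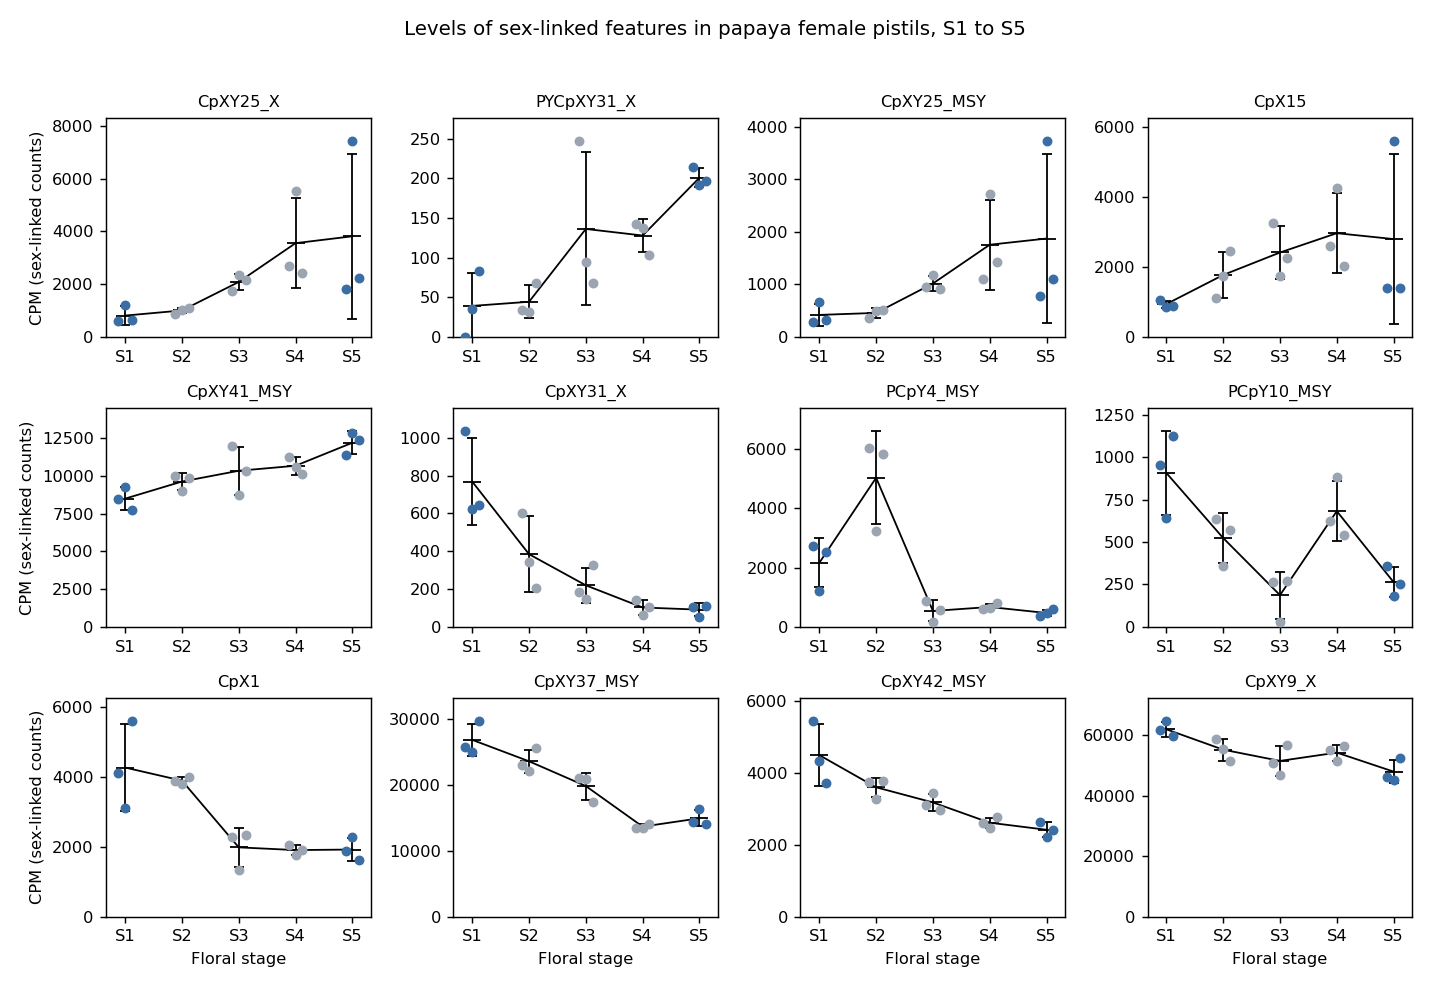
Level in CPM of sex-linked counts (y axes, from 0) of 12 features at stages S1 to S5 (x axes) in female pistils. Each point is a library, blue for S1 and S5 and grey between, bars are mean ± SD (n = 3) and the line joins the means; the spread of CpXY25_X and CpX15 at S5 comes from replicate 2, while CpXY31_X and CpXY37_MSY lie lower at S5 in every library.

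CpXY31_X (chromosome X, 4739152 to 4739769), a single-exon X feature whose Y copy had no count in any pistil, fell furthest. The S1 libraries held 1033, 624 and 646 CPM and the S5 libraries 107, 53.1 and 112 CPM, from 51, 36 and 39 and 6, 5 and 8 counts. The lowest S1 library was more than 5 times the highest S5 library. The change was -3.09 (SE 0.51, adjusted p = 0.00102), between -3.30 and -2.77 over its alternatives. The stage means fell at every step, from 768 CPM in the youngest pistils through 384, 219.6 and 103 CPM to 90.9 CPM in mature ones. The last step, from S4 to S5, was -0.23 on the log2 scale (SE 0.60) and did not pass the threshold. At S4 the libraries held 11, 4 and 5 counts and overlapped those of S5. PYCpXY31_X, which carries the same number in its name and lies 149 kb away on the X, rose over the same stages.

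A pair of Y-labelled features without an X partner fell. PCpY4_MSY (chromosome Y, 1326011 to 1326911) had 2736, 1213 and 2533 CPM at S1, 6017, 3221 and 5843 CPM at S2 and 357, 457 and 589.9 CPM at S5. Its highest level was thus at S2, and the fall followed between S2 and S3. The change from S1 to S5 was -2.19 (SE 0.46, adjusted p = 0.00447), and in the fit over all 19 groups it was -2.16 (adjusted p = 0.435). PCpY10_MSY (chromosome Y, 2336018 to 2336413) had 952, 641 and 1126 CPM at S1 and 357, 181 and 253 CPM at S5, a change of -1.80 (SE 0.51, adjusted p = 0.0211). Its course was uneven, since the S4 mean of 682 ± 178 CPM lay above the S3 mean of 187 ± 139 CPM. Its call was lost without S1 replicate 1, S1 replicate 3, S5 replicate 2 or S5 replicate 3 (adjusted p = 0.0502 without S1 replicate 1 and 0.0746 without S5 replicate 2). In the fit over all 19 groups its adjusted p was 0.329.

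CpX1 (chromosome X, 1956491 to 1956845), an X feature without a partner, stood at 4113, 3101 and 5596 CPM at S1 and 1875, 2283 and 1615 CPM at S5. It fell by 1.15 on the log2 scale (SE 0.23, adjusted p = 0.00401), with most of the change between S2 and S3. PXYCpXY4_MSY had 11 to 34 counts per library at S1 and S5, with 689, 450.5 and 265 CPM at S1 and 196, 169.9 and 225 CPM at S5. Its change of -1.24 (SE 0.41, adjusted p = 0.0383) was not past the threshold when S1 replicate 1, S1 replicate 2, S2 replicate 2 or any S5 library was left out, and was -0.86 without S1 replicate 1 (adjusted p = 0.166).

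In shared pairs, both copies of CpXY37, CpXY42 and CpXY35 fell. CpXY37_MSY had the smallest adjusted p of the comparison, with 25775, 25001 and 29617 CPM in S1 libraries, 14357, 16279.6 and 14130.0 CPM in S5 libraries and a change of -0.84 (SE 0.10, adjusted p = 5.96e-05). CpXY37_X had 10962, 11539 and 9850.2 CPM and 4250.0, 5873 and 6798 CPM, a change of -0.93 (SE 0.17, adjusted p = 0.00157). In both copies the lowest S1 library was well above the highest S5 library.

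CpXY42_MSY fell from 5431, 4314 and 3725 CPM to 2625, 2209 and 2416 CPM, a log2 change of -0.89 (SE 0.15, adjusted p = 0.00102). CpXY42_X fell from 4316, 3309 and 2499.8 CPM to 2018, 1625 and 1882 CPM, a log2 change of -0.87 (SE 0.19, adjusted p = 0.00494). The S1 libraries of CpXY42 were widely spread and S1 replicate 1 was the highest, but the changes stayed at -0.74 for the Y copy and -0.66 for the X copy without it. CpXY35_X and CpXY35_MSY held nearly equal counts, and had log2 changes of -0.76 (SE 0.19, adjusted p = 0.00934) and -0.85 (SE 0.20, adjusted p = 0.00736). CpXY35_X stood at 2877, 2945 and 2218 CPM at S1 and 1607, 1508 and 1615 CPM at S5.

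CpXY17_MSY fell by 0.71 on the log2 scale (SE 0.24, adjusted p = 0.0412), from 3546, 3621 and 3626 CPM to 1804, 3281 and 1447 CPM. Its S5 replicate 2 was close to the S1 level, and without that library the change was -1.13. The call of CpXY17_MSY was lost without any one of the S1 libraries, S2 replicates 1 and 2, S4 replicate 3 and S5 replicates 1 and 3. CpXY20_MSY fell by 0.47 on the log2 scale (SE 0.13, adjusted p = 0.0184), from 12731 ± 374 to 9169.9 ± 313 CPM, and lost its call without S1 replicate 1, S5 replicate 2 or S5 replicate 3, with a largest adjusted p of 0.0572. CpXY45_MSY fell by 0.51 on the log2 scale (SE 0.18, adjusted p = 0.0429), from 6175 ± 429.9 to 4320.4 ± 336 CPM, with the call lost in 13 of 24 alternatives, including each S1, S2 and S5 library left out and S4 replicate 1.

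CpXY9_X was among the most abundant features that changed. It fell from 61560.4, 64589.9 and 59614 CPM to 46215, 45249.5 and 52405 CPM, a log2 change of -0.37 (SE 0.09, adjusted p = 0.00740), and is an X copy of a separate pair whose Y copy took 0.361% of the pair's female counts. No library left out ended the call of CpXY9_X. The last 2 called features, named after their values were seen, were CpXY17_X, with a log2 change of -0.49 (SE 0.15, adjusted p = 0.0278) and 1 S5 library inside the S1 range, and CpXY8_X, with -0.23 (SE 0.08, adjusted p = 0.0376). CpXY8_X went from 60243, 65889 and 63621 CPM at S1 to 54786, 52258 and 54329 CPM at S5.

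Of the 41 pairings of a tested X copy with a tested Y copy, 8 had both copies past the threshold, in the same direction in each. These were CpXY1, CpXY2, CpXY25 and CpXY41, which were higher, and CpXY17, CpXY35, CpXY37 and CpXY42, which were lower. CpXY19 enters the pairings once with CpXY19a_X and once with CpXY19b_X. The shared pair PXYCpXY4 is left out, since its X copy was not tested. The median gap between the log2 changes of the copies was 0.0856 in the 26 shared pairings, 0.242 in the 10 partly shared and 0.950 in the 5 separate ones. Copies that can count the same reads are not separate measurements. In the separate pairs the 5 Y-labelled copies had few counts, with log2 changes of -1.77 to 0.96 that did not pass the threshold. The X copies of separate pairs gave 2 higher and 3 lower of 20 tested, with a median log2 change of -0.05. Those of shared pairs gave 3 higher and 3 lower of 26, with a median of 0.03, and those of partly shared pairs 2 higher and 1 lower of 10, with a median of 0.15. Y copies of shared pairs gave 2 higher and 6 lower of 26, with a median of -0.06. The share called in these classes lay near the 27.6% over all features tested and sets none of them apart.

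**Figure D3:**
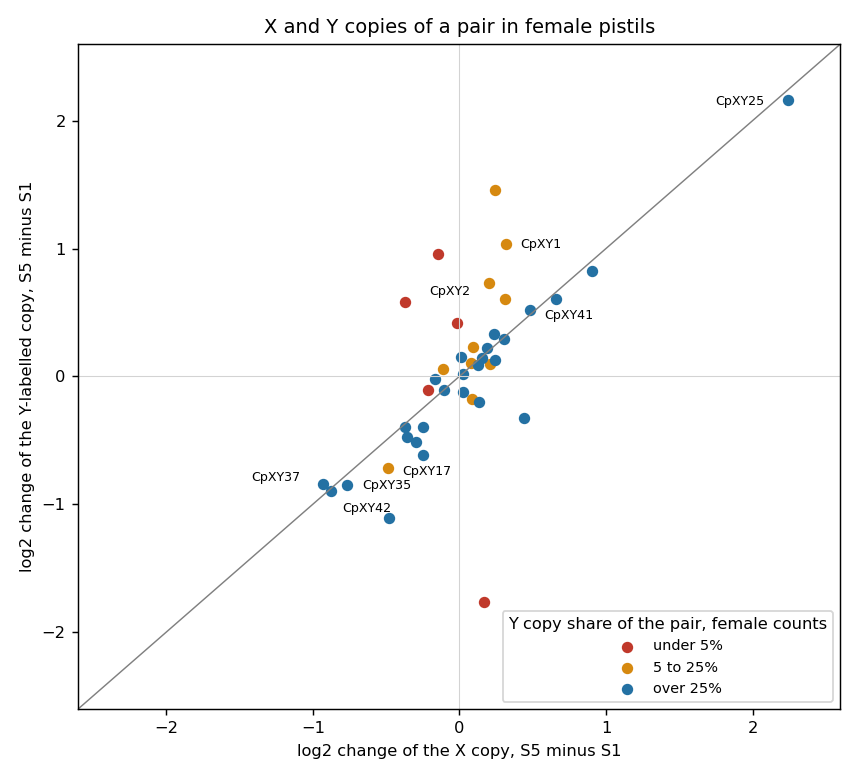
Log2 change from S1 to S5 of the X copy (x axis) and of the Y-labelled copy (y axis) of 41 pairings in female pistils, with a line of equal change. Colours give the share of the pair's female counts at the Y copy, and CpXY19 has a point for each of its X copies. Named points are the 8 pairs with both copies past the threshold. Pairings with over 25% at the Y copy have a median gap of 0.0856 from equal change and a largest gap of 0.760. Of these 26 pairings, 23 have copies of the same sign.

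The names of features give further groups. Features without a partner mostly had few or no counts in pistils: 4 of 27 on the X and 4 of 27 on the Y had enough counts to test. On the X these gave CpX15 higher and CpX1 lower, and on the Y PCpY4_MSY and PCpY10_MSY lower. That is 2 of 4 tested on each chromosome, above the 27.6% over all features tested but resting on few features. Of 53 features whose names begin with P, 21 were tested, and 2 were higher and 3 lower, with a median log2 change of -0.05; a share near the 27.6% called over all features tested. Of 20 tested features with a single exon, 3 were higher and 6 lower, and of 85 with more exons 9 were higher and 11 lower. The share called was thus above 27.6% for single-exon features and below it for the others, in a grouping chosen after the values were seen. The single-exon features had lower levels, with a median over the 15 pistils of 1408 CPM against 5149 CPM, and a larger median SE, 0.434 against 0.168 on the log2 scale. The 10 called features past 2-fold had a median level of 1055 CPM and the 19 others called 7689 CPM.

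In a stretch of the X chosen after the values were seen, features that lie close together differed in direction, unlike the neighbours CpXY1_X and CpXY2_X. Within 165 kb of the X (4933526 to 5098546), from CpXY34_X to CpXY42_X, 9 features were listed and 8 tested. CpXY34_X and CpXY41_X rose there, CpXY35_X, CpXY37_X and CpXY42_X fell, and the other 3 did not pass the threshold. The Y-labelled copies from CpXY35_MSY to CpXY42_MSY, within 151 kb of the Y (7635700 to 7787165), gave 1 higher, 3 lower and 3 not past the threshold of 7 tested. Just before that stretch, CpXY34_MSY did not pass (log2 change 0.29). The features tested in both stretches are copies of shared pairs and can count the same reads. Over all features tested 27.6% were called, and the larger share here is no result, since the stretch was chosen with its values known.

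Fewer features were called between neighbouring stages than from S1 to S5. From S1 to S2 edgeR called 0 of 105 features (0%), with 3 (2.86%) at an unadjusted p under 0.05, and DESeq2 called 0. From S2 to S3 it called 2 (1.90%), both lower: PCpY4_MSY changed by -3.24 (SE 0.46, adjusted p = 0.000489) and CpX1 by -0.97 (SE 0.23, adjusted p = 0.0420). The PCpY4_MSY libraries went from 6017, 3221 and 5843 CPM at S2 to 863, 161 and 584 CPM at S3, where replicate 2 stood apart. CpX1 went from 3888, 3799 and 4000.0 CPM to 2280.2, 1343 and 2338 CPM. The call of CpX1 was lost without any one of the S2 libraries, S3 replicate 1 or S3 replicate 2, with an adjusted p of 0.0670 without the last. The count of 2 became 1 without S2 replicate 1, S2 replicate 2 or S3 replicate 1, and 5 without S3 replicate 2.

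From S3 before meiosis to S4 after meiosis 2 features were called (1.90%), 1 higher (0.952%) and 1 lower (0.952%). CpXY34_X rose by 0.47 on the log2 scale (SE 0.11, adjusted p = 0.0259), from 6779, 5935 and 7285 CPM to 9382, 9471 and 8826 CPM. CpXY37_MSY fell by 0.54 on the log2 scale (SE 0.10, adjusted p = 0.00962), from 21031, 20921 and 17450.5 CPM to 13462, 13408 and 14101 CPM. In both features the groups were apart, but the call of CpXY34_X was lost without S3 replicates 1 or 2 or any one of the S4 libraries, and that of CpXY37_MSY without S3 replicate 1 or S4 replicate 1. The count of 2 became 0 without S3 replicate 1 or S4 replicate 1, and 1 without S4 replicate 2 or S4 replicate 3. From S4 to S5 edgeR called 0 features (0%), with 6 (5.71%) at an unadjusted p under 0.05, and DESeq2 called 0.

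Over the 5 stage means, 11 of the 29 called features moved in one order at every step, 6 upward and 5 downward, and 12 of all 105 tested did. Part of that order follows from the call, since both use S1 and S5. Among steps in the direction of the overall change, the largest lay between S1 and S2 for 3 of the 29 called features, between S2 and S3 for 10, between S3 and S4 for 10 and between S4 and S5 for 6. For the 76 features that were not called these numbers were 16, 19, 25 and 16, so that the step from S3 to S4 was the largest for 34.5% of called and 32.9% of other features. PCpY10_MSY, counted between S2 and S3, had a larger step in the opposite direction between S3 and S4.

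**Figure D4:**
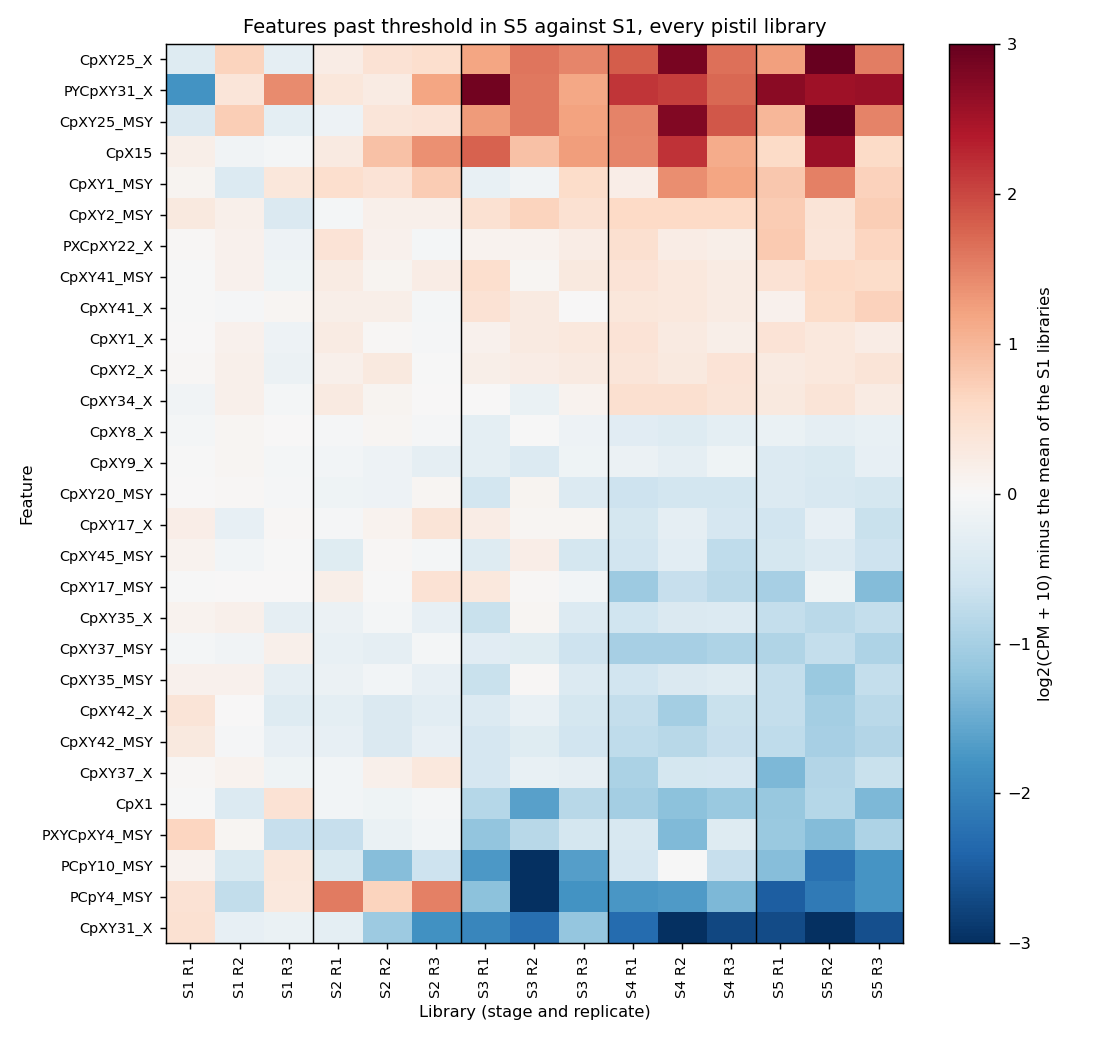
Level of the 29 called features (rows) in each of the 15 pistil libraries (columns, by stage and replicate), as log2(CPM + 10) minus the mean of the 3 S1 libraries; red is higher, blue lower, and colours are capped at 3 and -3. Black lines part the stages; S5 R2 and S4 R2 are the darkest red for CpXY25 and CpX15, and PCpY4_MSY is red at S2 and blue from S3 on.

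Of the 76 features that did not pass the threshold, 58 had a 95% interval of the change within 1 log2 unit of 0 and 29 within 0.5. Per kilobase of exon, the highest mean levels at S1 were those of CpXY12_X (69317 ± 2694 CPM per kb), CpXY16_X (53382 ± 2576), CpXY9_X (53335 ± 2159.7), PYCpXY5_X (44306 ± 2968) and CpXY48_MSY (41396 ± 7444), each as mean ± SD with n = 3. At S5 the order was CpXY16_X (63215 ± 5308 CPM per kb), CpXY12_X (59687 ± 2825), CpXY16_MSY (41885 ± 5239.9), CpXY9_X (41306 ± 3344) and PYCpXY5_X (41134 ± 2555). Exon bases numbered 148 for CpXY16_MSY, 174 for CpXY48_MSY, 237 for CpXY16_X, 261 for PYCpXY5_X, 552 for CpXY12_X and 1161 for CpXY9_X. Levels per kb of the shortest may not be comparable with those of longer features. CpXY16_X, CpXY16_MSY and CpXY48_MSY are copies of shared pairs and can count the same reads as their partners. Neighbours in these orders overlapped in their mean ± SD except CpXY12_X with CpXY16_X at S1, CpXY9_X with PYCpXY5_X at S1 and CpXY12_X with CpXY16_MSY at S5. Of these features only CpXY9_X passed the threshold between the stages; CpXY12_X had -0.22 (SE 0.08, adjusted p = 0.0531) and an interval of -0.38 to -0.05, and CpXY16_X had 0.24 (SE 0.13, adjusted p = 0.208). CpXY47_MSY, the largest single Y-labelled feature with 8.32% of all pistil counts, stood at 86282, 90007 and 72196 CPM at S1 and 95858, 82789 and 96803 CPM at S5, a log2 change of 0.15 with an interval of -0.06 to 0.36.

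To see where the change in pistils differed from that in an aborted pistil, the S5 minus S1 change was compared between female pistils and male pistillodes over 28 libraries, in which 129 features could be tested; 10 of these had no counts in any S1 or S5 pistil. The difference of changes passed for 18 features (14.0%), 11 with a more positive change in pistils (8.53%) and 7 with a more negative one (5.43%). With counts scaled by the table totals alone the split was 25 to 4. The count of 18 was 8 without pistil S5 replicate 2, 10 without pistillode S5 replicate 1, and 11 without pistil S5 replicate 3 or without pistillode S1 replicate 1, S1 replicate 3 or S5 replicate 2. In the same fit, pistillodes alone gave 30 called features between S1 and S5 (23.3%). The pistillode library S5 replicate 3 stood apart, with the lowest total of the S5 pistillodes (37595 counts), 67.0% of counts at Y-labelled features against 53.7% and 53.5% in the others, and 28.2% of its counts at PCpY4_MSY. Without it 12 differences passed, 4 more positive and 8 more negative in pistils, and 10 of them were among the 18. Males carry a Y and females do not, so Y-labelled counts differ in origin between the organs. In males the X-labelled copies of shared and partly shared pairs can also count reads from the Y. CpXY34_X, CpXY17_X, CpXY19a_X and CpXY19b_X are such copies, and how much of their difference this makes was not tested.

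CpXY34_X had the smallest adjusted p, with a difference of 1.18 (SE 0.18, adjusted p = 0.000158). In the scaling of this fit it stood at 6189, 7046 and 6158 CPM in S1 pistils and 8041, 8524 and 7731 CPM in S5 pistils. In pistillodes it stood at 3489, 3428 and 3627 CPM at S1 and 1736, 2094 and 1989 CPM at S5. The level was thus higher at S5 in every pistil and lower at S5 in every pistillode, though the pistil change alone did not pass in this fit (log2 0.33, adjusted p = 0.0820).

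The changes of CpX1 and CpXY17_X were more negative in pistillodes than in pistils. CpX1 changed by -1.13 in pistils and -2.63 in pistillodes, a difference of 1.50 (SE 0.45, adjusted p = 0.0376). Its pistillode levels were 4217, 6285 and 5794 CPM at S1 and 952, 1039.9 and 553 CPM at S5. The call was lost without pistil S5 replicate 2 or without pistillode S1 replicates 2 or 3 or S5 replicates 1 or 3 (log2 1.24 to 1.79 over all alternatives, largest adjusted p = 0.0773). CpXY17_X changed by -0.48 in pistils, which did not pass in this fit, and -1.82 in pistillodes, a difference of 1.35 (SE 0.24, adjusted p = 0.000483). Its pistillode levels were 9507, 9141 and 8581 CPM and 2588, 2686 and 2395 CPM.

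The 3 copies of CpXY19 rose in pistillodes and did not pass the threshold in pistils. CpXY19a_X stood at 1878, 2799 and 2670.1 CPM in S1 pistillodes and 8498, 11829 and 6153 CPM in S5 pistillodes. In pistils it stood at 1349, 583 and 1078 CPM and 1001, 758 and 594 CPM, with overlapping groups. The difference was -2.21 (SE 0.43, adjusted p = 0.000962) for CpXY19a_X, -2.21 (SE 0.40, adjusted p = 0.000483) for CpXY19_MSY and -1.69 (SE 0.56, adjusted p = 0.0473) for CpXY19b_X, and these copies can count the same reads. CpXY42_MSY changed by -0.88 in pistils and by 0.42 in pistillodes, which did not pass there, a difference of -1.30 (SE 0.40, adjusted p = 0.0384). The calls of CpXY19b_X and CpXY42_MSY were both lost without pistil S1 replicate 1, S5 replicate 2 or S5 replicate 3 and without pistillode S1 replicate 1, S1 replicate 3, S5 replicate 1 or S5 replicate 2, and that of CpXY19b_X also without pistil S1 replicate 3.

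The other named differences rest on few counts in at least 1 organ. PCpY1_MSY, a Y-labelled feature without an X partner, had 2933, 2209 and 3241 CPM in S1 pistillodes and 33.4, 0 and 111 CPM in S5 pistillodes. Pistils held 0 to 5 counts of it per library, and the difference was 6.57 (SE 1.58, adjusted p = 0.00728), lost without pistil S5 replicate 2 (adjusted p = 0.0771). CpXY10_X had 159, 32.4 and 188 CPM in S1 pistils and 0, 20.5 and 0 CPM in S5 pistils, with at most 12 counts in a pistil library. Its pistillode levels were 19.2, 0 and 16.8 CPM and 184, 217 and 184 CPM, in the opposite order, and the difference was -7.41 (SE 1.61, adjusted p = 0.00283). PYCpXY31_X was at 0 in every S5 pistillode and in 2 of the 3 S1 pistillodes, and its difference of 6.92 (SE 2.20, adjusted p = 0.0464) depends on the prior count of the fit. Without pistillode S1 replicate 1, the library that held its pistillode counts, that difference was 2.25, and the call was also lost without pistil S1 replicates 1 or 2, any S5 pistil or any S5 pistillode.

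**Figure D5:**
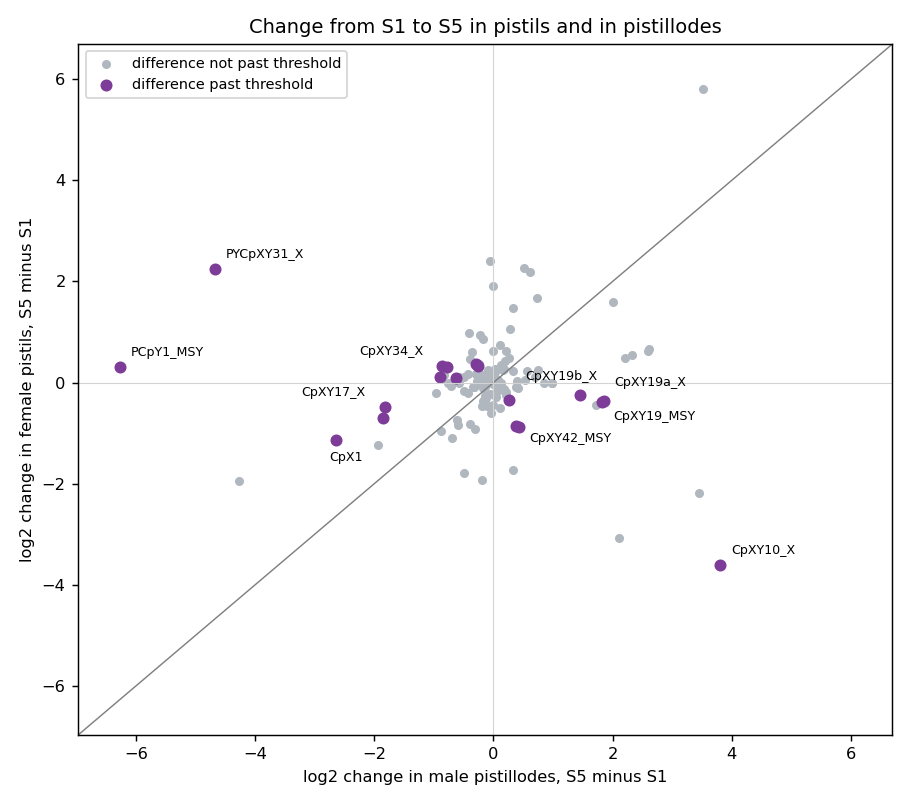
Log2 change from S1 to S5 in male pistillodes (x axis) and in female pistils (y axis) for the 129 features of the 28-library fit, with a line of equal change. Purple points are the 18 features whose difference passed the threshold, and the 10 named features carry labels; CpXY34_X lies above 0 in pistils and below 0 in pistillodes, and CpXY19a_X lies far to the right.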

How the data were processed

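RNA-seq counts of 15 female pistil libraries (3 for each of S1 to S5) and 13 pistillode libraries were used. The deposited values are raw counts of read pairs per gene name, taken over its exons. Per the file headers, featureCounts 2.0.0 ran with its options for pairs and for multi-mapping reads, so such a read counts at all its places, and with no strand setting. Per the submitters' processing notes, the tools were featureCounts 1.5.2 (another version than in the headers), HISAT2 2.0.5, Trimmomatic 0.36, FastQC 0.11.5 and SAMtools 1.3.1. Without strand, overlapping genes on opposite strands cannot be told apart. The listed features on opposite strands shared no exon bases, though CpXY19a_X lies within the span of CpXY20_X on the other strand. Because the tables hold sex-linked features alone, scaling rests on them, and a change shared by all of them would not be seen.

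Groups came from the sample labels. Counts were filtered by group with filterByExpr, scaled with TMM (the trimmed mean of M-values) and fitted with edgeR 4.0.16 (R 4.3.3) by a robust quasi-likelihood model with 1 coefficient per group, prior count 0.125. Tests were two-sided with Benjamini-Hochberg adjustment over all features tested and a threshold of 0.05, on 15 libraries for pistils and 28 for the difference from pistillodes. Errors of levels are SD over 3 libraries. Each pair of replicates differed beyond counting noise, so none was counted as a duplicate. Named features were up to 15 in each direction with the largest change among those past the threshold, with a mean of at least 10 counts in the higher group and no overlap of the groups; for steps up to 3 per direction were named, and for pistil against pistillode up to 5, without the rule on overlap. The 5 highest levels per kilobase of exon at S1 and at S5 were also named. CpXY8_X, CpXY17_X and CpXY47_MSY, and the groups by exon number and position, were chosen after their values were seen. Other features named are partner copies or lie between named ones. The members, lists and tests were chosen with earlier results of these data known. The pistil fit of S5 minus S1 was run on counts simulated for each feature on its own. These held neither reads shared between copies nor a library that stood apart, so they cannot speak for such cases. Exact permutation tests, tables and figures used SciPy 1.17.1, pandas 2.3.3 and matplotlib 3.10.9 under Python 3.11.15. Alternatives were other scalings, DESeq2 1.42.0, other count filters, X features alone, the replicate number as a block, fits on all 19 groups or on the 6 libraries alone, and each library left out in turn; leaving out libraries of S2, S3 and S4 in the S5 minus S1 comparison was added after the data were seen.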

Additional observations from a re-analysis of the deposited data

Results flagged for a closer look

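By the test of the difference (edgeR, Benjamini-Hochberg adjustment), the change from S1 to S5 differed between female pistils and male pistillodes for 18 features. The 10 given here are the largest in each direction, up to 5, with a mean of at least 10 counts in the highest group. The log2 difference, pistil minus pistillode, was 6.92 for PYCpXY31_X, 6.57 for PCpY1_MSY, 1.50 for CpX1, 1.35 for CpXY17_X and 1.18 for CpXY34_X. It was -7.41 for CpXY10_X, -2.21 for CpXY19_MSY, -2.21 for CpXY19a_X, -1.69 for CpXY19b_X and -1.30 for CpXY42_MSY. CpXY10_X, CpXY17_X, CpXY19_MSY, CpXY19a_X and CpXY34_X kept an adjusted p under 0.05 in each of the 20 or 21 alternatives run on them. PYCpXY31_X kept it in 10 of 20, CpXY19b_X in 9 of 21, CpXY42_MSY in 12 of 20, CpX1 in 16 of 21 and PCpY1_MSY in 19 of 20. Single libraries far from their group were not tested for, since each group has 3 libraries or fewer.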

How the results depend on the processing

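Scaling rests on sex-linked features alone, and with 3 libraries per group single libraries decided many calls. For S5 against S1 the count of 29 became 17 of 60 with X features alone, 19 with all 19 groups in 1 fit (6 higher, 13 lower; 16 of the 29 kept) and 19 with the 6 libraries alone (3 higher, 16 lower; 17 kept). It was 32 with median of ratios scaling, 34 with DESeq2 and 14 to 34 with each library left out. From S2 to S3 the 2 calls became 1 with table totals, 1 with TMM on X features, 5 with DESeq2, 0 with X features alone (9 at an unadjusted p under 0.05), 1 with 19 groups and 1 to 5 with libraries left out. From S3 to S4 the 2 calls became 4 with median of ratios, 6 with DESeq2, 4 with a mean of at least 10 counts, 0 with X features alone (10 at an unadjusted p under 0.05), 1 with 19 groups and 0 to 3 with libraries left out. The 18 differences between pistils and pistillodes became 29 with table totals, 28 with DESeq2 and 8 to 19 with libraries left out, with 8 without pistil S5 replicate 2. The Y share was 0.0777 to 0.408 percentage points higher at S5 with libraries left out, and -0.880 (exact permutation p = 0.2) without CpXY47_MSY. The cause of these moves was not tested, but fewer features or libraries enter the fits on X features, on 6 libraries and with libraries left out. The difference in totals was 5765 to 24019 counts with libraries left out, and steps from S1 to S2 and S4 to S5 gave 0 calls in every alternative. Deviations of same-numbered S1 and S5 libraries from their stage means had correlations of 0.0348 to 0.393. Over all stages these ran from -0.247 to 0.480, the highest for replicate 2 of S2 and S3. Their mean was 0.0357, against -0.0174 for libraries of other numbers, and the numbers were not taken to pair libraries. That mean hides differences between pairs. Replicate 2 libraries correlated at 0.412 for S3 with S4, 0.429 for S4 with S5 and 0.315 for S3 with S5. They stood at -0.0704 for S1 with S2, -0.144 for S1 with S4 and -0.0640 for S2 with S5. Libraries of other numbers reached 0.560, for S2 replicate 3 with S3 replicate 1. What replicate 2 libraries share was not tested. With the replicate number as a block the counts were 27 for S5 against S1, 4 for S4 against S3 and 11 for pistil against pistillode. The count filter left 40 features with few counts out of the pistil fit, besides 48 with none.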
